A study of Mus musculus with 8 samples.

Results

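The natriuretic peptide system of the fetal mouse heart was followed through 7 genes: the peptide genes Nppa, Nppb and Nppc, the receptor genes Npr1, Npr2 and Npr3, and Corin, which encodes the protease that activates the peptide made from Nppa. They were found by symbol among the 26590 gene symbols of the deposited table, and all 7 were present, on 16 transcript rows. Where a gene had several rows, the row with the highest average of the genotype means was used, and its other rows were checked against it. The table comes from RNA sequencing of whole hearts from 4 Dio3+/+ and 4 Dio3-/- fetuses of the C57BL/6J strain, described by the submitters as male and titled E13.5. Each RNA sample came from an individual fetus. Dio3 encodes the deiodinase that inactivates the thyroid hormones T4 and T3, and the Dio3-/- animals lack it in every tissue, so the genotype is not specific to the heart. The labels also hold a separate age field. It reads E18.5 in the 2 hearts numbered 3 and 4 of the Dio3-/- group and E13.5 in the remaining 6. The study gives the sequenced hearts as E13.5 in its Results and as E14.5 in its Methods.

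Natriuretic peptides are hormones that signal through cyclic GMP (cGMP). Atrial natriuretic peptide, from Nppa, and B-type natriuretic peptide, from Nppb, are made by cardiac muscle cells as inactive precursors, and C-type natriuretic peptide, from Nppc, is made mainly by endothelial cells and other tissues. Corin cuts the Nppa precursor at the cell surface, and the protease furin cuts the precursors of the other peptides. Npr1 is the receptor for the Nppa and Nppb peptides and Npr2 that for the Nppc peptide, and both carry a guanylyl cyclase inside the cell, whereas Npr3 has no cyclase and clears the peptides from the circulation. In the fetal heart, Nppa is a classic mark of the atria and of the trabecular layer of the ventricle.

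Nppb and Nppa lie next to each other on mouse chromosome 4, on the same strand, and Corin lies on chromosome 5. The 250 bases before the start of these 3 genes are shown because Nppa and Nppb gave the highest levels of the system and Corin was its only gene that passed the test below. All 7 genes were matched by symbol to the RefSeq promoters, which are on GRCm38.p6. The build used for the deposited values is not named in the sources used here. Capitals mark letters that were searched on both strands: TATAAA (the TATA box), AAGTG (bound by NKX2-5), AGATAA (bound by GATA factors) and GGTGTG (bound by T-box factors, CACACC on the opposite strand).
Nppa (GRCm38.p6, chr4:148000472-148000721, plus strand): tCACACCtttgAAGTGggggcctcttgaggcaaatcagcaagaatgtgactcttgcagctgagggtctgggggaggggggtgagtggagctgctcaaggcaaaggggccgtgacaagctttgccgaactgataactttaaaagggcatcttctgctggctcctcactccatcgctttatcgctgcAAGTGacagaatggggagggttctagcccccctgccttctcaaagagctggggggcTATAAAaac
Nppb (GRCm38.p6, chr4:147985650-147985899, plus strand): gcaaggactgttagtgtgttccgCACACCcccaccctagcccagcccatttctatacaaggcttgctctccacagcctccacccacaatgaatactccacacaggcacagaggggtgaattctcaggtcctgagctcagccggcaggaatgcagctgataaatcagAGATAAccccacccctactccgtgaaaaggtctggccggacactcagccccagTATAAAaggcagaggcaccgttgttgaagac
Corin (GRCm38.p6, chr5:72504541-72504790, minus strand): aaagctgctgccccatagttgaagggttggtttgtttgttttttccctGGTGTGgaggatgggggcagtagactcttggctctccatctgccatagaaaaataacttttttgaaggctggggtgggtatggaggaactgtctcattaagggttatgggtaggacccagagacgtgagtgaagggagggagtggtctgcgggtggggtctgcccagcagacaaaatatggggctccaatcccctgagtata
The TATA box letters stood 9 bases before the start of Nppa, 31 bases before that of Nppb and 29 bases before that of Nppc, so that each of the 3 peptide genes held them, as did 12.4% of 32851 RefSeq promoter windows of this length. The Nppa window held AAGTG at 239 and 65 bases before the start, letters found in 40.7% of all windows. AGATAA stood 84 bases before the start of Nppb and is found in 9.99% of windows. The T-box letters stood on the opposite strand in Nppa (249 bases before the start) and Nppb (227), and on the same strand in Corin (202), and 16.3% of windows held them. The letters AGGTCA, the half-site of thyroid hormone receptors and other nuclear receptors, were in none of the 7 windows and in 14.0% of all windows. For 3 of the 7 genes, Npr1, Npr2 and Npr3, no searched letters were found. These matches describe the windows only.

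The deposited table gives a mean and a coefficient of variation (CV, the SD divided by the mean) for each genotype and no value for a single heart. The means are read as RPKM, a unit scaled for library size and for transcript length, so that levels can be set against each other between genes. None of 4 values can lie more than 1.5 SD from their mean, so the mean and the CV, with their rounding, fix limits that hold every heart, and these limits are given where values of single hearts would stand. Differences are on the scale of log2(RPKM + 0.5), which understates the change of low genes. They were tested with limma, calculated from the summaries, with Benjamini-Hochberg adjustment over 32703 rows above 1 RPKM in at least 1 genotype. The median difference over the 14657 tested genes was 0.04 on the log2 scale.

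Dio3 itself was low, at 0.35 RPKM (CV 1.23) in Dio3+/+ and 0.13 RPKM (CV 0.76) in Dio3-/- hearts. It cannot serve as a check of the labels. Of 63 genes in 14 marker lists of heart and other cell types, 53 were tested. Of these, 2 were higher (Myh6 and Stard10) and 1 was lower (Hbb-bh1) in Dio3-/- hearts. Over all 14657 genes tested, 2.29% passed in either direction. The markers of kidney and lung reached at most 0.26 RPKM. Tnnt2 and Actc1, which mark heart muscle, were at 1212 and 4778 RPKM in Dio3+/+ hearts. Markers of embryonic red cells had a summed level of 36808 RPKM in the Dio3+/+ group against 12550 RPKM in the Dio3-/- group, and those of skeletal muscle 16.6 against 3.75 RPKM. All 8 liver markers had a higher mean in Dio3-/- hearts, and none passed the test. Their sum was 16.0 RPKM in the Dio3+/+ group against 109.5 in the other. Their CVs were 0.5 to 1.41 among Dio3+/+ and 0.89 to 1.26 among Dio3-/- hearts. The 4 markers of fetal age had a median log2 difference of −0.04, and none passed. Their CVs were 0.09 to 0.49 among Dio3+/+ hearts and 0.04 to 0.35 among Dio3-/- hearts. The part of these cells and of the mixed age labels in the results below was not tested. In RNA of a whole heart, fewer cells of a type and less RNA per cell cannot be told apart.

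Of the 7 genes, 6 were above the limit for testing and 1 passed: Corin was lower in Dio3-/- hearts, by 20.4%, and no gene of the system was higher. Both cardiac peptide genes had higher means in Dio3-/- hearts, by 15.7% for Nppa and 14.7% for Nppb, without passing the test. On the rows used, the means of the 3 receptor genes differed by less than 5% in either direction, and another Npr2 row was 7.1% lower. Over all 14657 genes tested, 2.29% passed the test, 0.382% as lower and 1.91% as higher in Dio3-/- hearts. Limits that held every heart and did not overlap between genotypes were found for 1 of the 6 genes, Corin, and for 3.86% of all genes tested. The median log2 difference of the 6 genes was 0.03. Without the adjustment, 2 of the 6 had a p value under 0.05 (Corin and Nppa), as did 2883 of all genes tested.

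**Figure D1:**
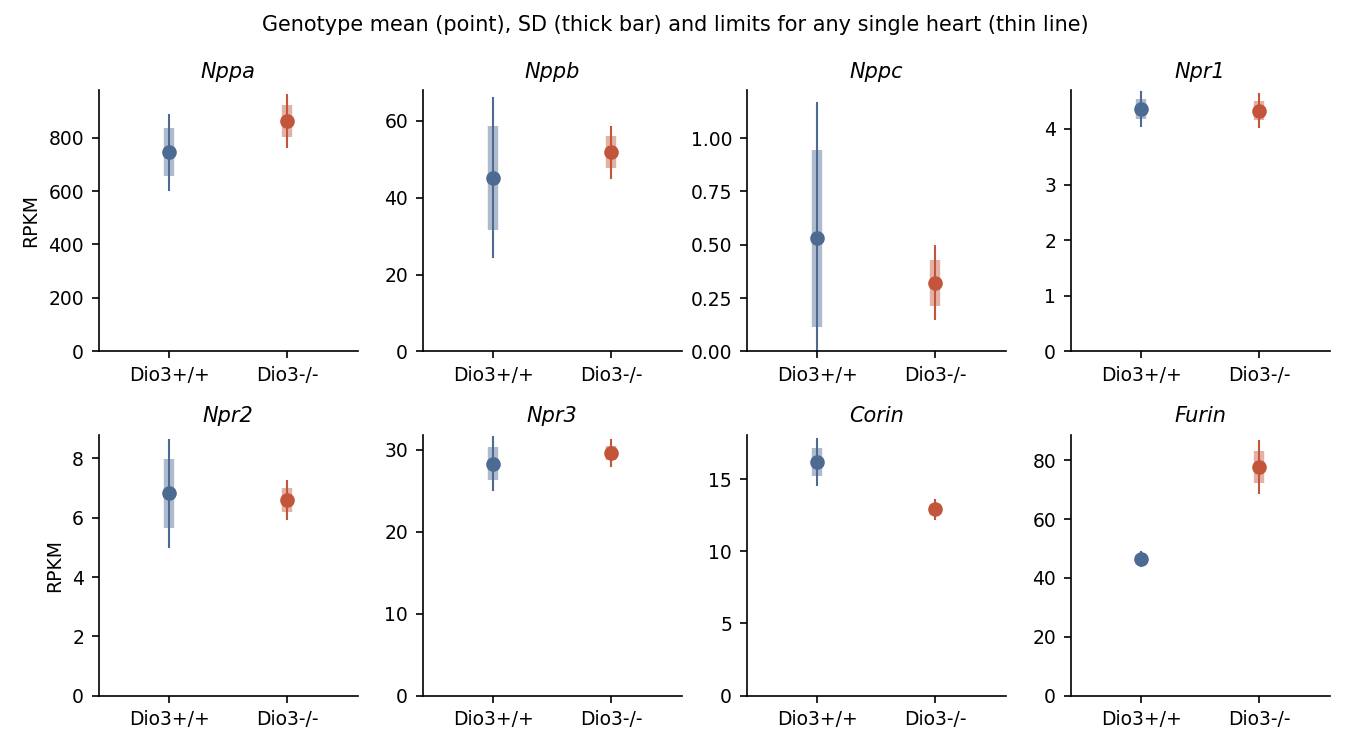
Levels of the 7 genes and of Furin in RPKM, on linear axes that start at 0, for 4 Dio3+/+ (blue) and 4 Dio3-/- (red) hearts. Points are the authors' genotype means, thick bars 1 SD to each side and thin lines the limits that hold every single heart. The lines of Corin (12.2 to 13.6 RPKM in Dio3-/-, 14.6 to 17.8 RPKM in Dio3+/+) and of Furin do not overlap between genotypes, and those of the other genes do.

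The levels of the system spanned more than 3 orders of magnitude on the length-scaled RPKM scale and stood in the same order in both genotypes: Nppa, Nppb, Npr3, Corin, Npr2, Npr1 and Nppc. For each neighbouring pair in that order, the mean less 1 SD of the higher gene lay above the mean plus 1 SD of the lower, in both genotypes. For Nppb and Npr3 in Dio3+/+ hearts these bounds were 31.6 and 30.3 RPKM, and their limits for single hearts overlapped. Nppa ranked 88 among the 26590 symbols by its average level, Nppb 1446, Npr3 2610, Corin 5218, Npr2 8914, Npr1 10660 and Nppc 16218.

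Nppa was the most abundant transcript of the system by a wide margin. Its mean was 744.63 RPKM (CV 0.12, n = 4) in Dio3+/+ and 861.33 RPKM (CV 0.07, n = 4) in Dio3-/- hearts. Every Dio3+/+ heart lay between 605 and 884 RPKM and every Dio3-/- heart between 764 and 958 RPKM. The upper part of the Dio3+/+ limits and the lower part of the Dio3-/- limits therefore overlapped. The log2 difference was 0.21 (standard error 0.092, 95% interval 0.004 to 0.42), and its adjusted p by limma was 0.257. A difference of 0.42 would have been needed to pass the adjusted threshold at this spread, so the interval reached from almost no difference up to that size. Among all tested genes, 90.9% had a lower log2 difference. The marker genes of cardiac muscle had a median log2 difference of 0.17 over 6 tested genes (1 called higher, Myh6), and those of atrial muscle one of 0.15 over 5 (1 called higher, Stard10). The medians were 0.07 for 4 genes of the trabecular layer and 0.16 for 3 of the compact layer, with none called, and whether the Nppa value differs from theirs was not tested.

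Nppb, the other cardiac peptide gene, was far lower and far more variable among Dio3+/+ hearts. Its mean was 45.17 RPKM (CV 0.30, n = 4) in Dio3+/+ and 51.81 RPKM (CV 0.08, n = 4) in Dio3-/- hearts. The Dio3+/+ hearts lay within 24.5 to 65.8 RPKM and the Dio3-/- hearts within 45.2 to 58.4 RPKM, so the limits of the Dio3-/- hearts fell wholly inside those of the Dio3+/+ hearts. The Dio3+/+ CV was higher than that of 93.4% of tested genes, whereas the Dio3-/- CV was higher than that of 61.9%. The log2 difference was 0.20 (standard error 0.18, 95% interval −0.21 to 0.60, adjusted p = 0.611 by limma), and a difference of 0.83 would have been needed to pass. The second Nppb row, at 44.49 and 50.49 RPKM, gave 0.18. The ratio of the Nppa mean to the Nppb mean was 16.5 in Dio3+/+ and 16.6 in Dio3-/- hearts.

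Nppc was barely present, with 0.53 RPKM (CV 0.78) in Dio3+/+ and 0.32 RPKM (CV 0.34) in Dio3-/- hearts, which is under the limit for testing. The Dio3+/+ hearts could lie anywhere from 0 to 1.16 RPKM and the Dio3-/- hearts from 0.152 to 0.493 RPKM. When every row above 0 was tested, its log2 difference was −0.33 (standard error 0.26, 95% interval −0.91 to 0.25, adjusted p = 0.612 by limma). A difference was thus not detectable at this level. Of the summed level of the 3 peptide genes, Nppa made up 94.2% in Dio3+/+ and 94.3% in Dio3-/- hearts, and Nppb 5.72% and 5.67%.

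The receptor genes were led by the clearance receptor. Npr3 had a mean of 28.34 RPKM (CV 0.07, n = 4) in Dio3+/+ and 29.61 RPKM (CV 0.03, n = 4) in Dio3-/- hearts, and the limits of the Dio3-/- hearts (28.1 to 31.2 RPKM) fell inside those of the Dio3+/+ hearts (25.1 to 31.5 RPKM). Its log2 difference was 0.06 (standard error 0.056, 95% interval −0.06 to 0.19, adjusted p = 0.605 by limma). The 4 Npr3 rows, transcripts of 1 gene and not independent measurements, gave 0.06 in every case. Npr3 made up 71.7% of the summed level of the 3 receptor genes in Dio3+/+ and 73.1% in Dio3-/- hearts. Fetal endocardium is a known site of Npr3, and 6 markers of endocardium and endothelium had a median log2 difference of 0.08, with none called.

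Npr1, the cyclase receptor for the Nppa and Nppb peptides, was at 4.36 RPKM (CV 0.04, n = 4) in Dio3+/+ and 4.33 RPKM (CV 0.04, n = 4) in Dio3-/- hearts. Its limits for single hearts, 4.06 to 4.66 RPKM and 4.03 to 4.63 RPKM, were almost the same. The log2 difference was −0.01 (standard error 0.058, 95% interval −0.14 to 0.12, adjusted p = 0.956 by limma), which as a ratio of Dio3-/- to Dio3+/+ is 0.908 to 1.09. At this spread, a log2 difference of 0.27 in Npr1 or of 0.26 in Npr3 would have passed the test, against 0.49 in Npr2. The mean of Npr3 was 6.50 times that of Npr1 in Dio3+/+ and 6.84 times in Dio3-/- hearts.

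Npr2, the cyclase receptor for the Nppc peptide, had a mean of 6.82 RPKM (CV 0.17, n = 4) in Dio3+/+ and 6.59 RPKM (CV 0.06, n = 4) in Dio3-/- hearts. The Dio3-/- hearts (5.94 to 7.24 RPKM) again fell inside the limits of the Dio3+/+ hearts (5.03 to 8.62 RPKM). Its log2 difference was −0.05 (standard error 0.11, 95% interval −0.28 to 0.19, adjusted p = 0.862 by limma). The 4 Npr2 rows ran from −0.10 to 0.03, so that the sign depended on the row.

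Corin was the gene of the system that fell. Its mean was 16.21 RPKM (CV 0.06, n = 4) in Dio3+/+ and 12.90 RPKM (CV 0.03, n = 4) in Dio3-/- hearts. All Dio3+/+ hearts lay between 14.6 and 17.8 RPKM and all Dio3-/- hearts between 12.2 and 13.6 RPKM, so the lowest Dio3+/+ heart was above the highest Dio3-/- heart. The log2 difference was −0.32 (standard error 0.054, 95% interval −0.44 to −0.20, adjusted p = 0.0209 by limma), a ratio of 0.796 between the means. With the spread of each row taken on its own, not moderated, and on linear RPKM, the adjusted p was 0.142 and the call was lost. That unmoderated test is the kind the Methods describe. Calculated here from rounded means and CVs, it need not give the study's own calls, for Corin or for the genes below. The other Corin rows gave −0.32 each, from 16.15 to 12.86 RPKM and from 15.63 to 12.45 RPKM, with adjusted p of 0.0135 and 0.0138 by limma, but are transcripts of the same gene and not independent of the first. Among tested genes, 4.84% had a lower log2 difference than Corin. The 3 embryonic red cell markers also had lower means in Dio3-/- hearts, with CVs of 0.27 to 0.31 in Dio3+/+ and 0.46 to 0.61 in Dio3-/- hearts, and 1 of them was called. Of the 4 skeletal muscle markers, Myod1, Myog and Pax7 had lower means in Dio3-/- hearts, with CVs of 1.56 to 1.62 in Dio3+/+ hearts, where the highest possible is 2, and Actn3 had a higher one (1.65 and 2.04 RPKM). Of 6 cardiac muscle markers, 5 had a positive log2 difference (median 0.17), and of 5 atrial muscle markers, 3 had one (median 0.15). The part of these cells in the lower Corin level was not tested.

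**Figure D2:**
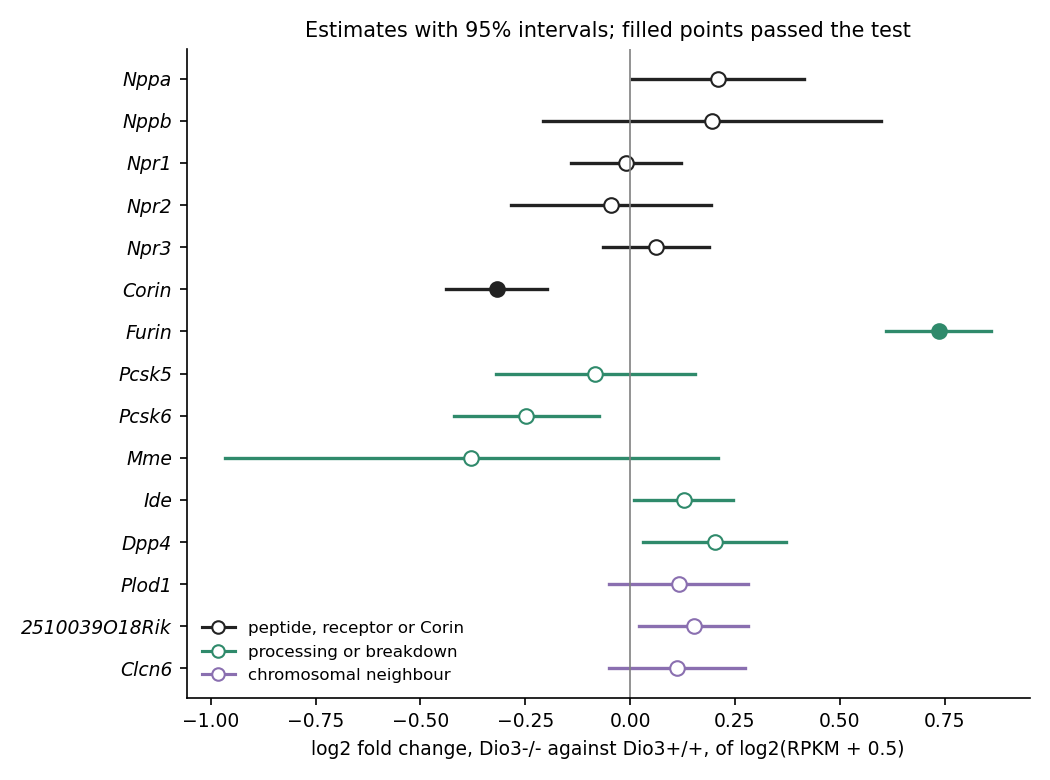
Log2 fold change of Dio3-/- against Dio3+/+ hearts (points) with 95% intervals (lines) for the tested genes of the system (black), genes of peptide processing and breakdown (green) and 3 neighbours of Nppb and Nppa on the chromosome (purple), with filled points for an adjusted p under 0.05 by limma. Corin (−0.32) and Furin (0.74) lie apart from 0 on opposite sides and are the filled points.

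The ratio of the Nppa mean to the Corin mean was 45.9 in Dio3+/+ and 66.8 in Dio3-/- hearts, and that of Nppb to Corin 2.79 and 4.02. These ratios of genotype means have no error, since values of single hearts are not given.

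The genes that act beside the system were taken from 5 lists with 50 genes, of which 44 were tested. Furin was the single gene that passed, and it was higher in Dio3-/- hearts. This is 2.27% of the 44, against 2.29% of all genes tested. The median log2 difference of the 44 genes was 0.07, against 0.04 over all genes tested. An unadjusted p under 0.05 was found for 12 of them (27.3%) and for 19.7% of all genes tested.

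Of the 7 genes for processing, breakdown and other ligands, 6 were tested, 1 was higher and none was lower. Furin, the convertase that cuts the Nppb and Nppc precursors, rose from 46.50 RPKM (CV 0.03, n = 4) in Dio3+/+ to 77.81 RPKM (CV 0.07, n = 4) in Dio3-/- hearts. Every Dio3+/+ heart lay between 44.1 and 48.9 RPKM and every Dio3-/- heart between 69.1 and 86.6 RPKM. The log2 difference was 0.74 (standard error 0.056, 95% interval 0.61 to 0.86, adjusted p = 0.000291 by limma), and with the unmoderated test on linear RPKM the adjusted p was 0.0942 and the call was lost. The ratio of the Furin mean to the Corin mean was 2.87 in Dio3+/+ and 6.03 in Dio3-/- hearts. The 8 liver markers also had higher means in the Dio3-/- group, and none was called. Their CVs were 0.5 to 1.41 in Dio3+/+ and 0.89 to 1.26 in Dio3-/- hearts. Their part in the Furin level was not tested.

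Pcsk6, the convertase that activates corin, had means of 5.21 and 4.31 RPKM in Dio3+/+ and Dio3-/- hearts, a log2 difference of −0.25 (95% interval −0.42 to −0.07, adjusted p = 0.122 by limma). It falls outside the rule for named genes and was chosen after its values were seen. Among the enzymes that break peptides down, Mme, which encodes neprilysin, was at 8.21 RPKM (CV 0.47) and 6.20 RPKM (CV 0.09), a log2 difference of −0.38 with a 95% interval from −0.97 to 0.21. The insulin-degrading enzyme gene Ide had 24.6 and 26.9 RPKM (log2 difference 0.13, adjusted p = 0.225 by limma), and Dpp4 had 9.36 and 10.84 RPKM (0.20, adjusted p = 0.190). Ostn, whose peptide binds Npr3, was at 0.07 and 0.01 RPKM and was not tested.

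No gene of the other 4 lists passed. Soluble guanylyl cyclase and the nitric oxide synthases form the second route to cGMP, and 4 of their 6 genes were tested, with a median log2 difference of 0.17. The cyclase subunits Gucy1a3 and Gucy1b3 had 0.17 and 0.18, Gucy1a2 had 0.06, and the endothelial synthase gene Nos3 had 0.22 (adjusted p = 0.178 by limma). Gucy1a3, at 27.38 RPKM in Dio3+/+ hearts, was more abundant than either cyclase receptor.

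Of 8 genes for cGMP-dependent kinases and their targets, 6 were tested, and their median was 0.04. The kinase gene Prkg1 was at 9.33 and 7.72 RPKM, a log2 difference of −0.26 (adjusted p = 0.174 by limma). Its substrates Pln, Vasp and Ppp1r12a had differences of 0.08, 0.02 and 0.16. All 9 genes for cGMP breakdown and export were tested, with a median of 0.06, and the most abundant, the phosphodiesterase gene Pde3a, had 14.4 and 14.6 RPKM. Pde3b, Pde1a and the exporter gene Abcc5 had log2 differences of 0.06, 0.18 and −0.17.

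The list of transcription factors known to act on the Nppa and Nppb genes had 20 genes, of which 19 were tested, with a median log2 difference of 0.08. Tbx20 had means of 158 and 201 RPKM without passing (log2 difference 0.34, 95% interval 0.10 to 0.58, adjusted p = 0.125 by limma). Gata4, Nkx2-5 and Gata6, the other abundant factors, had 0.16, 0.11 and 0.11. Thra, the thyroid hormone receptor gene of cardiac muscle, was at 46.3 and 46.5 RPKM, and Thrb at 0.34 and 0.53 RPKM was not tested.

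**Figure D3:**
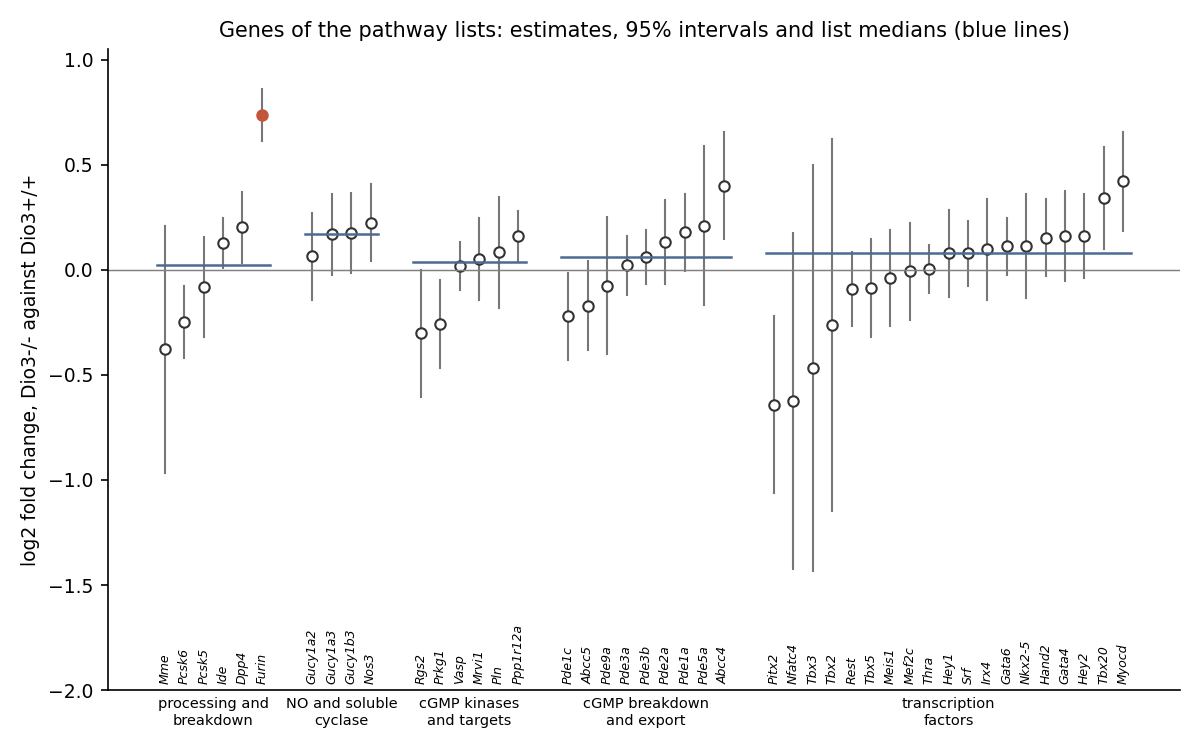
Log2 fold change of Dio3-/- against Dio3+/+ hearts for the 44 tested genes of 5 lists, with 95% intervals (grey lines), list medians (blue lines) and a filled red point for an adjusted p under 0.05 by limma. Furin is the single filled point, and the list medians lie between 0.02 and 0.17.

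Genes next to Nppb and Nppa on the chromosome were compared, since the peptide genes lie side by side, and none of the 3 given here passed the test. 2510039O18Rik and Plod1, on the Nppb side, had log2 differences of 0.15 (adjusted p = 0.199 by limma) and 0.12 (adjusted p = 0.444). Clcn6, next to Nppa, had 0.11 (adjusted p = 0.453).

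**Figure D4:**
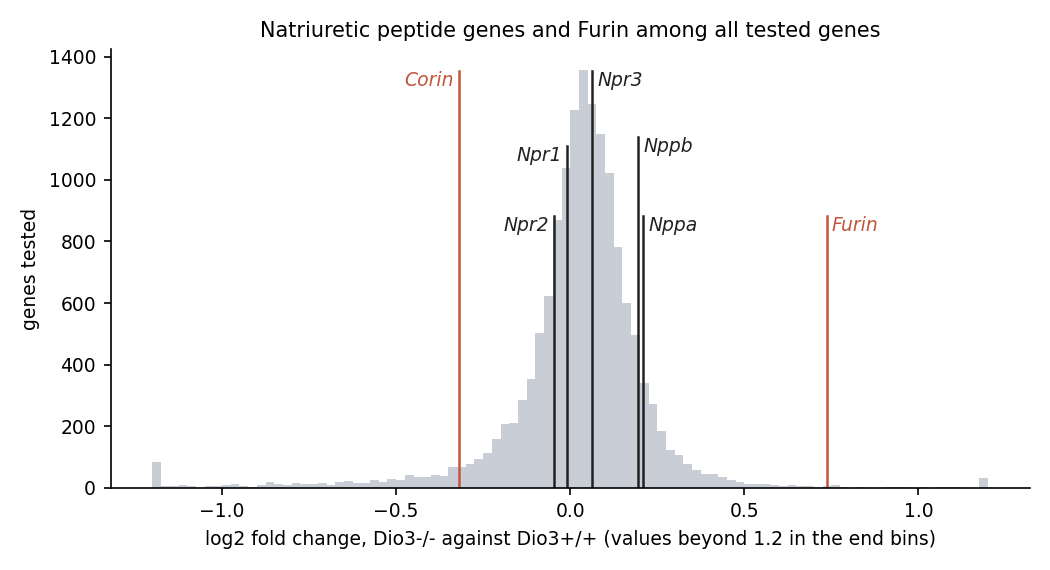
Histogram of the log2 fold change of Dio3-/- against Dio3+/+ hearts over 14657 tested genes (grey; values beyond the axis are in the end bins), with lines for the 6 tested genes of the system and Furin, in red where they passed the test and with heights that carry no value. Corin lies below all but 4.84% of genes. The receptor genes Npr2, Npr1 and Npr3 lie above 23.9%, 33.6% and 57.8% of genes, on both sides of the median of 0.04.

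For 5 of the 7 genes, GENCODE annotates a gene on the opposite strand that overlaps it: Gm13054 over Nppa, Gm16048 over Npr1, Gm12473 over Npr2, Gm5144 over Npr3, and Gm20647 and Gm19560 over Corin. Gm44851 likewise overlaps Furin. On the same strand, AU023070, Gm25768 and Gm23712 overlap Corin. None of these has a row under that symbol in the table, and other names were not searched. Whether the counting used strand is not given in the sources used here. Without strand, reads of the opposite-strand genes cannot be told apart from those of the named genes. Reads of the same-strand genes cannot be told apart from those of Corin by strand.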

How the data were processed

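RNA from 4 Dio3+/+ and 4 Dio3-/- fetal hearts was depleted of ribosomal RNA and sequenced. The submitters' processing notes name FastQC and Novoalign (2.08). The authors used uniquely aligned reads, scaled each sample linearly to the one with the fewest reads and deposited genotype means, read here as RPKM, the unit of the filter in their Methods. They also deposited each CV, a ratio of SD to mean, and their own fold changes and q values, which were not used. Means have 2 decimals. The Methods state how many reads were aligned, but read totals are no part of the table, so the precision that depth gives each value could not be calculated.

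The 7 genes and all lists were chosen with earlier results of these data known. Tests planned for single hearts were calculated from the summaries. The SD of log2(RPKM + 0.5) was approximated from the CV, and limma (3.58.1, R 4.3.3) moderated the pooled variance (6 residual degrees of freedom) along a trend, adding 3.52 prior degrees of freedom. The script was tested on simulated data. Genes named were the 7, their neighbours and, per list, every gene with an adjusted p under 0.05 and otherwise up to 4 with the highest mean. Pcsk6, Ostn, Thra and Thrb, from the same lists, and the genes of the closing observations were added after their values were seen. Of those the rule names, 1 gene is not reported here. Values of single hearts would have been needed to name genes of like pattern. Alternatives were pseudocounts of 0.1 and 1, no filter, a mean above 5 RPKM, no trend, Welch's test, 1 row per gene, centring, raised CVs and other transcript rows. Python (3.11.15) with pandas (2.3.3) made the summaries. The p values by limma set the difference between genotypes against the moderated spread between hearts. The labels do not say which fetuses were littermates, and any effect of shared litters on the p values was not tested.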

Additional observations from a re-analysis of the deposited data

How the results depend on the processing

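No paired analysis was possible because the table holds genotype means and no value for a single heart. For the same reason neither leaving out a heart nor a replicate block was run. With limma 336 genes passed, 83.3% of them higher in Dio3-/- hearts. The count was 197 without a filter on low values, 187 with each CV raised by 0.005 (its largest rounding error), 180 after centring on the median log2 ratio of the tested rows (71.7% higher) and 26 with Welch's test (96.2% higher). With Welch's test 0 of the 6 tested genes of the system and 0 of the 44 list genes passed, while 1 and 9 of them had an unadjusted p under 0.05 by that test, against 2 and 12 with limma. Corin kept its log2 difference of −0.32 there but not its call (adjusted p = 0.142). Over its 11 alternatives the difference of Corin was −0.36 to −0.31, with adjusted p from 0.0135 to 0.142, and it passed in the other 10. Furin also lost its call with Welch's test only (adjusted p = 0.0942). Npr2 changed sign in 1 of its other rows (0.027, adjusted p = 0.927). Nppa, Nppb, Npr1 and Npr3 kept their sign and did not pass under any alternative run, with adjusted p values of at least 0.222 for Nppa. Centring lowers every log2 difference by 0.04. The approximation of the log2 SD is least reliable where the CV is large, as for Nppb and Nppc. The cause of the loss under Welch's test was not tested.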

Other observations

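Families related to Corin, Furin and the cyclase receptors were listed after their values were seen, and their values are given as a description. Besides Furin, Pcsk5 and Pcsk6, the table holds 6 proprotein convertase genes, and of these Mbtps1 (44.2 RPKM in the Dio3+/+ group, 41.9 RPKM in the Dio3-/- group) and Pcsk7 (4.99 and 6.12 RPKM) were tested, with log2 differences of −0.08 and 0.27 and no call. Pcsk5, a convertase close to Furin in sequence, was at 6.32 and 5.94 RPKM. Of the type II transmembrane serine proteases, the family of corin, 15 others had rows and none reached 1 RPKM. The highest of them by the average of both genotypes was Hpn, at 0.43 and 0.65 RPKM, against 16.21 and 12.90 RPKM for Corin. The 5 other receptor guanylyl cyclase genes were at no more than 0.06 RPKM, which leaves Npr1 and Npr2 as the cyclase receptors above 1 RPKM in these hearts.

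The 7 genes differed in spread as well as in level. In Dio3+/+ hearts the CV ran from 0.04 for Npr1 to 0.30 for Nppb among tested genes, and in Dio3-/- hearts from 0.03 for Npr3 and Corin to 0.08 for Nppb, and each CV was at least as high in Dio3+/+ as in Dio3-/- hearts. Over all tested genes the median CV was also higher in Dio3+/+ hearts, 0.09 against 0.06.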
